A study of Saccharomyces cerevisiae with 16 samples.

Results

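The open reading frames (ORFs) of Saccharomyces cerevisiae were numbered outward along each chromosome arm when the genome was first annotated, with W or C for the strand. ORFs recognised later were given the name of a neighbour with a hyphen and a letter, and such suffixed names are mostly those of small ORFs. A total of 292 rows were studied, out of 12670 rows of the table and 5836 rows of its ORF class (ORF-T, transcripts of ORFs). They were chosen by name alone: 301 rows carried the suffixed pattern, and 9 of these were set aside by the rule. The remaining 5544 ORF-T rows are called the other ORF-T rows below.

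RNA was compared between 3 genotypes of the MATa laboratory strain BY4741, all grown to an OD600 of 0.8. They were cells lacking both RTR1 and RRP6 (rtr1Δ rrp6Δ, the double deletion, 4 libraries), cells lacking RRP6 (rrp6Δ, 3 libraries, replicates 1, 3 and 4) and wild-type cells (WT, 4 libraries). The rrp6Δ strain was one of a knockout collection, and in the double deletion a kanamycin resistance cassette stood in place of RTR1. Cultures were begun from a single colony out of a frozen stock of each strain. Rrp6 is the exonuclease that works with the exosome in the nucleus, where it trims the 3′ ends of small nucleolar RNAs (snoRNAs) and removes short noncoding transcripts soon after they are made. Many of those transcripts end where Nrd1 and Nab3 bind the RNA, and Rtr1 is a phosphatase acting on the C-terminal domain of RNA polymerase II, to which Nrd1 binds. Counts in this work are reads per annotated row, and CPM are the same counts brought to a common library size with TMM scaling, so that libraries can be compared.

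Libraries held 28765694 to 38578463 counts, of which the 292 suffixed ORFs took 1.21% to 1.46%. The deleted genes matched the labels. RTR1 had 35 to 56 counts in the double deletion, against 417 to 575 in rrp6Δ cells and 548 to 762 in WT cells. RRP6 had 8 to 22 counts in the double deletion and 10 to 13 in rrp6Δ cells, against 3605 to 5503 in WT cells. The 6 genes of mating type a summed to 1476 to 2099 CPM over the 11 libraries, and the 4 genes of mating type α to 28.0 to 34.3 CPM, most of it SAG1. URA3, which BY4741 lacks, had 367 to 514 counts in all libraries. Of the other auxotrophic deletions of BY4741, MET17 had 21 to 143 counts, HIS3 had 693 to 1310, and LEU2 had no row. In bulk RNA, less RNA of a gene in each cell and fewer cells that make it cannot be told apart.

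The names matched the RefSeq annotation of assembly R64 for 210 of the 292 suffixed ORFs, 124 with a gene symbol and 86 with a systematic name only. The other 82 (28.1%) were not matched, against 3.05% of the other ORF-T rows. The matched ORFs had coding lengths of 78 to 1593 bases with a median of 237, against a median of 1266 for the other ORF-T rows. Coding length was at most 300 bases in 79.5% of them, against 1.34%. They lay on all 16 chromosomes, 27 held an intron, and 9 overlapped a gene on the opposite strand. A near-identical copy elsewhere in the genome (at least 85% identity over at least 70% of the length) was found for 12, among them PAU9, RPL36B and PMP1, so that reads of these could be split or shared between copies.

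The printed sequences are those on which the results below turn, read from the R64 genome (the sacCer3 build) on the coding strand. The first is shown for its overlap with a snoRNA gene. YJL047C-A (chromosome X, 349044 to 349178, minus strand, 135 bases) encodes a hypothetical protein, and its first 49 bases, in capitals, are also bases of SNR60, a snoRNA gene at 349130 to 349233 on the same strand.
YJL047C-A: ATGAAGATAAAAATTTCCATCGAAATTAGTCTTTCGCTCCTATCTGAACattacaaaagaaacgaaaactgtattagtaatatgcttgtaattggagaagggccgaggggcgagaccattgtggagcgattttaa
The other two ORFs that were higher in rrp6Δ cells and a pair that were lower are shown for their short Nrd1 and Nab3 words. In these, capitals mark TGTA, in RNA a word bound by Nrd1, and TCTT, in RNA a word bound by Nab3. YOL097W-A (XV, 136220 to 136405, plus strand) and YKL183C-A (XI, 98395 to 98607, minus strand) encode hypothetical proteins. SPO24 (YPR036W-A, XVI, 645950 to 646153, plus strand) encodes a small protein of sporulation, and LSO1 (YJR005C-A, X, 448477 to 448758, minus strand) a protein made during iron deprivation.
YOL097W-A: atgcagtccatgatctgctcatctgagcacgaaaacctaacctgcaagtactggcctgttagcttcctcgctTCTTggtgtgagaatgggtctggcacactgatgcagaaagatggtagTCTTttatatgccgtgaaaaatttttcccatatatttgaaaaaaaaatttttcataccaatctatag
YKL183C-A: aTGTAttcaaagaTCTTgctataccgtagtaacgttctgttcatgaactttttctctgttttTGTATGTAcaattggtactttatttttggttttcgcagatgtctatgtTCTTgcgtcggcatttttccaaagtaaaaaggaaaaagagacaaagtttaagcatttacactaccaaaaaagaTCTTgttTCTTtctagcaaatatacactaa
SPO24: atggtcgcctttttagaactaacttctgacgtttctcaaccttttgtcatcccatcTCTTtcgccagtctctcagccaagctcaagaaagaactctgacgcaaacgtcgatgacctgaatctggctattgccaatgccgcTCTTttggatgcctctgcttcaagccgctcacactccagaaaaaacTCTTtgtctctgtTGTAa
LSO1: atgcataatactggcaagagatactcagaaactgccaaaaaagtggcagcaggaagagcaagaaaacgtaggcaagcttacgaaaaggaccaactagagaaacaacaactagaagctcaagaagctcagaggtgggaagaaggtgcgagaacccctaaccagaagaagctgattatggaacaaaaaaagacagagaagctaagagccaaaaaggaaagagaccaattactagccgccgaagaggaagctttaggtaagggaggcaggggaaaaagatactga
YKL183C-A held 3 TGTA and 4 TCTT, and YOL097W-A held 2 TCTT and 0 TGTA. SPO24 held 1 TGTA and 3 TCTT, while LSO1 held neither. In windows of the same length from the start of other ORFs, at least 1 of the words occurred in 77.2% for YKL183C-A, 72.5% for YOL097W-A, 75.8% for SPO24 and 85.9% for LSO1. A match of so short a word is a description of the sequence and not a binding site.

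In WT cells most suffixed ORFs were low: their median was 9.71 CPM, against 50.5 CPM for the other ORF-T rows, and 14.0% lay under 1 CPM, against 1.52%. Per kb of coding sequence the order was the other way, with a median of 55.8 CPM for the 210 matched ORFs and 38.6 for the other ORF-T rows. Rows without a RefSeq match are left out of this, and only coding bases were taken as length. How far these choices turn the order was not tested. The 5 most abundant took 31.2% of the suffixed total in WT cells. YDR524C-B, whose product is a hypothetical protein, was the first of these per length with 6526 ± 648 CPM per kb (SD, n = 4). PMP1, a small regulatory subunit of the plasma membrane proton pump, had 4701 ± 323 CPM per kb, SPO24 had 3700 ± 594, the ribosomal protein gene RPL36B had 3175 ± 487 and the cell wall protein gene CWP2 had 3125 ± 356 in WT cells. The WT range of SPO24 overlapped those of PMP1, RPL36B and CWP2, so their order is not resolved. Of the 5, SPO24 alone changed more than 2-fold in a mutant.

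In rrp6Δ cells 62 of the 292 suffixed ORFs rose and 37 fell against WT, by the edgeR quasi-likelihood test with a Benjamini-Hochberg adjusted p of at most 0.05 over all rows and a change of at least 1.5-fold. The share that rose was 21.2%, against 36.2% of all 12670 rows, which include many exosome substrates, and 3.26% of the other ORF-T rows. The share that fell was 12.7%, against 7.7% of all rows and 12.7% of the other ORF-T rows. Thus in this fit the suffixed ORFs differed from the other ORFs in the share of rises and not in the share of falls. The ORFs that rose had a median log2 change of 2.17 and those that fell of -0.78, and 33 of the 62 but 4 of the 37 changed more than 4-fold. The median log2 change over all 292 was -0.19, which is 0.10 above that of the other ORF-T rows. The number of falls depended on the scaling of the libraries, with 69 rises and 11 falls when scaled on ORF-T rows alone, 67 and 18 by the upper quartile, and 59 and 54 by the RLE method. The shares of all rows and of the other ORF-T rows under these scalings were not counted.

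The rises gathered in the least annotated and least expressed ORFs. Among the 82 unmatched ORFs 31 rose (37.8%) and 7 fell, among the 86 with a systematic name only 21 rose (24.4%) and 11 fell, and among the 124 with a gene symbol 10 rose (8.06%) and 19 fell. The 169 unmatched rows among the other ORF-T rows gave a like share, with 64 higher (37.9%). Among matched rows 14.8% of the suffixed ORFs rose, against 2.18% of the others. Of the 62 ORFs that rose, 34 had a mean under 1 CPM in WT cells, and 11 exceeded 10 CPM in rrp6Δ cells. By mean CPM over all libraries, the mutant ones included, 9 of 19 suffixed ORFs under 1 CPM rose, against 20 of 50 other ORF-T rows. At 1 to 10 CPM, 35.4% of 130 suffixed ORFs rose, against 15.0% of 633 other ORF-T rows, and at 10 to 100 CPM the shares were 5.26% and 1.56%. By coding length 8 of 27 suffixed ORFs up to 150 bases rose, 18 of 140 from 151 to 300 bases and 5 of 43 above 300 bases. Of the other ORF-T rows 0 of 5, 0 of 67 and 117 of 5303 rose in the same bins.

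**Figure D1:**
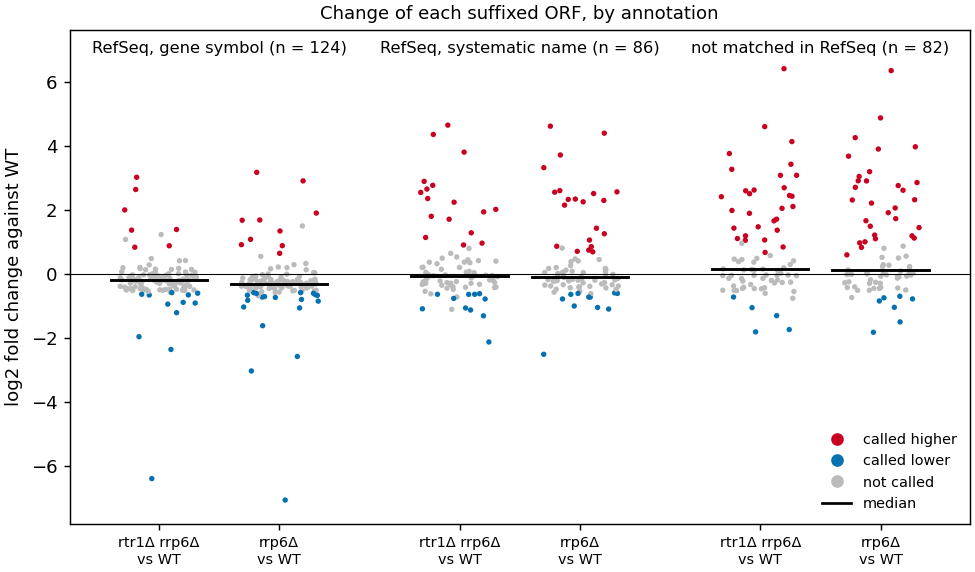
Log2 fold change of each of the 292 suffixed ORFs in rtr1Δ rrp6Δ and in rrp6Δ cells against WT cells, for ORFs with a gene symbol in RefSeq, with a systematic name only, and not matched in RefSeq. Each point is an ORF, coloured by its call, and the bars are medians: in rrp6Δ cells -0.30, -0.12 and 0.13, with most of the points above a log2 change of 2 in the groups without a symbol.

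The most abundant of the ORFs that rose was YJL047C-A, whose start overlaps SNR60. It had 256, 278, 212 and 259 CPM in the double deletion and 197, 218 and 219 CPM in rrp6Δ cells, against 12.4, 10.6, 10.5 and 6.86 CPM in WT cells. The groups were far apart, with a log2 change of 4.39 ± 0.18 (SE) in rrp6Δ cells (edgeR adjusted p = 2.29e-09). Both rows of SNR60 in the table rose with it. The row named SNR60-RT had 188 ± 11.6 CPM in rrp6Δ cells and 7.09 CPM in WT cells, and the row SNR60 had 81.1 ± 4.29 and 4.70 CPM. On the other side, UBX6, the next gene on the same strand, 406 bases beyond YJL047C-A, had 114.5 CPM in rrp6Δ cells and 34.6 CPM in WT cells (log2 change 1.73). RTT101, which lies before SNR60 on that strand, was not called, with 39.8 CPM in rrp6Δ cells and 49.0 CPM in WT cells. Reads of SNR60 that reach past its end are also reads of YJL047C-A, and the shares of the 2 in its counts cannot be told apart.

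YMR013W-A, not matched in RefSeq, was the other abundant one. It had 166, 96.8, 93.1 and 122 CPM in the double deletion and 174, 138 and 115 CPM in rrp6Δ cells, against 15.0, 12.03, 11.2 and 6.53 CPM in WT cells. All mutant libraries lay above all WT libraries, which for the double deletion was a condition of its choice. The log2 change in rrp6Δ cells was 3.67 ± 0.28 (edgeR adjusted p = 2.66e-07). Its name places it on the W strand beside SEC59, and between SEC59 and the next numbered gene, BUD22, RefSeq lists 7 snoRNA genes on the W strand, SNR72 to SNR78. Among their rows, SNR73-RT had 119 CPM in rrp6Δ cells and 5.73 CPM in WT cells, and SNR77 had 74.6 and 13.8 CPM, while SNR78 was not called, with 8.74 and 8.49 CPM. SEC59 itself, on the opposite strand, was not called, with 44.5 CPM in rrp6Δ cells and 31.7 CPM in WT cells.

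Genes of snoRNAs or of the small nuclear RNAs of the spliceosome were near 10 of the 210 matched ORFs (within 1000 bases). Of the 4 on the same strand as that gene 3 rose, namely YJL047C-A, SFT1 and MIN3, and TMA20 was not called. MIN3 lies upstream of its snoRNA gene, so 2 of the 3 that overlap or follow one rose. Of the 200 matched ORFs with none as near, 27 rose. SFT1 (YKL006C-A), which encodes a SNARE of the Golgi, begins 397 bases beyond SNR87. It had 119, 117, 123 and 118 CPM in the double deletion and 94.6, 98.98 and 94.2 CPM in rrp6Δ cells, against 34.0, 25.9, 31.7 and 28.2 CPM in WT cells. These values were tight within groups, with a log2 change of 1.68 ± 0.10 in rrp6Δ cells and 1.99 ± 0.09 in the double deletion (edgeR adjusted p = 2.93e-08 and 5.69e-09). The row SNR87-RT had 271 CPM in rrp6Δ cells and 38.3 CPM in WT cells. SFT1 and MIN3 were singled out here after their values were seen.

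On the opposite strand the picture was mixed. YOL097W-A starts 36 bases from the start of SNR58, and had 12.9, 12.1, 11.7 and 10.6 CPM in the double deletion and 18.3, 15.5 and 14.5 CPM in rrp6Δ cells, against 4.59, 3.31, 2.79 and 2.92 CPM in WT cells. Its log2 change in rrp6Δ cells was 2.25 ± 0.17 (edgeR adjusted p = 2.07e-07), and it too was singled out afterwards. Another 4 ORFs face the end of such a gene: CMC4, which encodes a protein of the mitochondrial intermembrane space, VMA9, a subunit of the vacuolar proton pump, COQ21 and KSH1, of the early secretory pathway. CMC4 alone of these was called, with a log2 change of -1.04, and VMA9 had -0.49, COQ21 -0.57 and KSH1 -0.42. The snoRNA rows facing 3 of them rose steeply. SNR11-RT, opposite CMC4, had 425 CPM in rrp6Δ cells and 22.1 CPM in WT cells, SNR43-RT, opposite VMA9, had 85.4 and 2.16 CPM, and SNR66-RT, opposite KSH1, had 275 and 5.52 CPM.

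**Figure D2:**
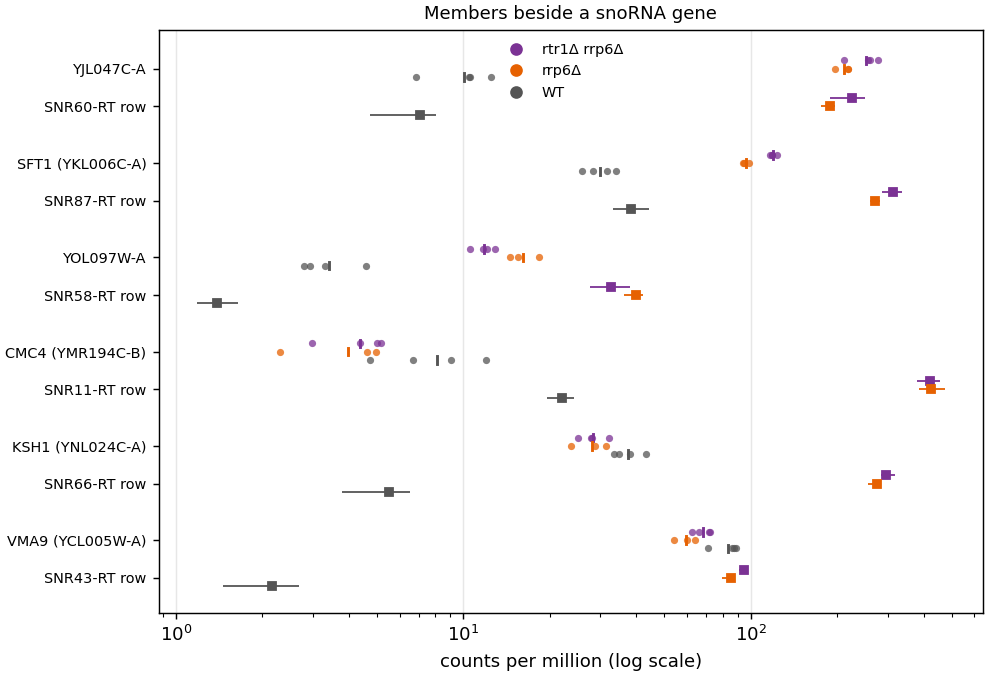
CPM (log scale) of 6 suffixed ORFs beside a snoRNA gene and of the row of that gene whose name carries RT, in rtr1Δ rrp6Δ, rrp6Δ and WT libraries. Circles are single libraries with a bar at the mean, and squares are means with the range over libraries: every RT row was higher in both mutants, while YJL047C-A, SFT1 and YOL097W-A were higher with it and CMC4, KSH1 and VMA9 were not.

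The other large rises were of RNAs hardly seen in WT cells. YLR364C-A had 69, 75, 108 and 68 counts in the double deletion and 77, 85 and 68 in rrp6Δ cells, against 1, 1, 0 and 1 counts in WT cells. Summed over libraries the ratio of rrp6Δ to WT counts was 106 (95% exact interval 35.8 to 518, counting error only). YER137W-A had 68, 72 and 62 counts in rrp6Δ cells and 1, 4, 1 and 2 counts in WT cells. YML094C-A had 84, 67 and 76 counts in rrp6Δ cells and 8, 4, 2 and 0 counts in WT cells. These 3 are not matched in RefSeq. None of their mutant libraries overlapped a WT library, which was a condition of their choice. YEL020C-B, YHR214C-E and YKL183C-A were also near 0 in WT cells, with log2 changes of 3.89, 4.61 and 3.71 in rrp6Δ cells (edgeR adjusted p = 1.98e-08, 1.44e-08 and 3.98e-07). YKL183C-A had 2.28, 2.53 and 2.17 CPM in rrp6Δ cells and 0.141, 0.328, 0.126 and 0.113 CPM in WT cells. YHR214C-E has 1 near-identical copy, so its reads may stem from either place.

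Among the 10 ORFs with a gene symbol that rose, NAG1 (YGR031C-A) and TYC1 (YBR296C-A) had the largest changes. NAG1, a gene nested on the strand opposite IMO32, had 2.65, 3.43, 3.02 and 3.04 CPM in the double deletion and 2.19, 3.40 and 2.83 CPM in rrp6Δ cells, against 0.460, 0.328, 0.408 and 0.309 CPM in WT cells. Its log2 change in rrp6Δ cells was 2.90 (edgeR adjusted p = 1.66e-07), while IMO32 had 35.0 CPM in rrp6Δ cells and 35.8 CPM in WT cells. TYC1 had 3.07, 3.31 and 2.73 CPM in rrp6Δ cells and 0.353, 0.525, 0.314 and 0.169 CPM in WT cells. ECM12 (YHR021W-A) had a log2 change of 1.67 and FMP49 (YER038W-A) of 0.91. YPL222C-A, not matched in RefSeq, had 26.6, 28.8, 30.1 and 25.9 CPM in the double deletion and 20.07, 32.05 and 27.3 CPM in rrp6Δ cells, against 2.86, 2.72, 3.48 and 2.56 CPM in WT cells. Across from it FMP40 fell, with 9.95 CPM in rrp6Δ cells and 17.9 CPM in WT cells, and the row antisense to FMP40 rose, with 39.8 and 3.26 CPM. The ORFs of this paragraph were chosen after their values were seen.

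**Figure D3:**
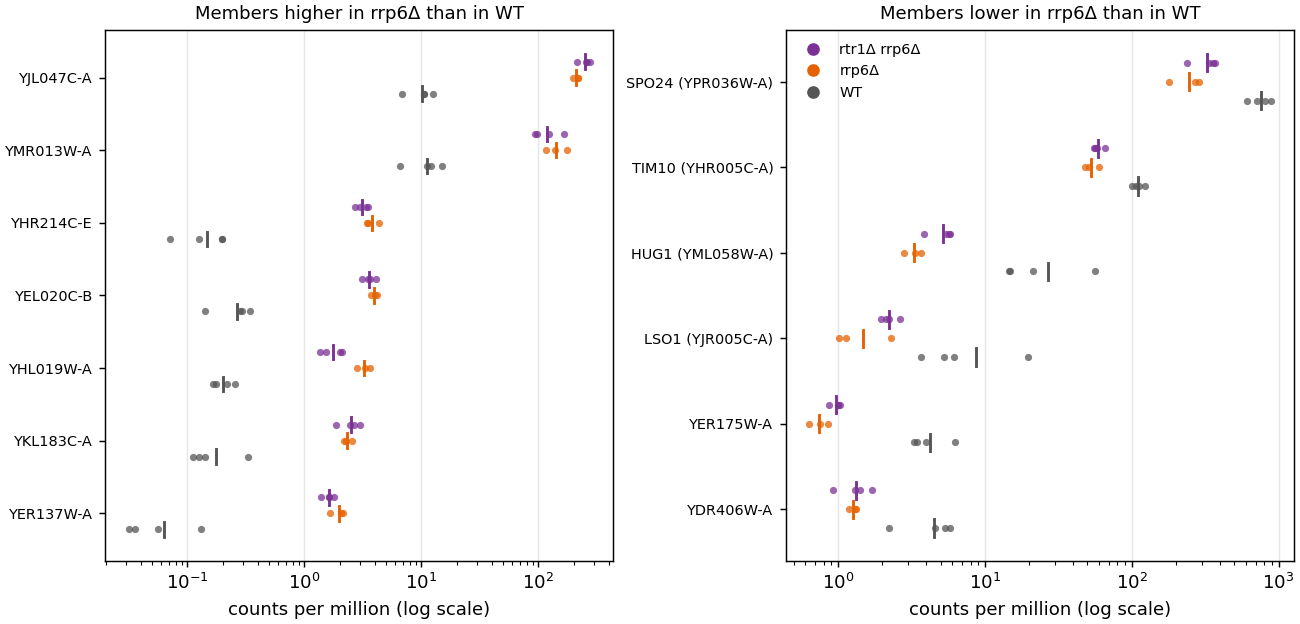
CPM (log scale) in every library for 7 suffixed ORFs that were higher and 6 that were lower in rrp6Δ than in WT cells. Groups that do not overlap were a condition of choice for these ORFs, TIM10 excepted. Each point is a library of the genotype given by its colour and the bars are means: the mutant libraries sit to the right of all WT libraries on the left panel and to the left of them on the right panel, with YJL047C-A, YMR013W-A and SPO24 the most abundant of those plotted.

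Of the 292 suffixed ORFs, 149 had a partner of the same number on the other strand with a row in the table. Of the 62 that rose 44 had one, and those partner ORFs themselves had a median log2 change of -0.28, close to that of the other ORF-T rows (-0.29). For 13 of the 44 the table also held the row antisense to the partner, and 10 of these 13 rows rose. Such a row is read from the strand of the suffixed ORF. It also rose for 9 of 16 suffixed ORFs that were not called and for 1 of 4 that fell. The authors kept antisense rows because they changed in rrp6Δ cells, so these counts are no separate evidence. YKL183C-A lies beside LOT5, whose antisense row had 15.4 CPM in rrp6Δ cells and 1.69 CPM in WT cells (log2 change 3.20). The row antisense to GIM5, opposite YML094C-A, had 3.19 CPM in rrp6Δ cells and 0.110 CPM in WT cells (log2 change 4.89). The row antisense to APM2, opposite YHL019W-A, had a log2 change of 3.10. Where a suffixed ORF and such a row cover the same bases, their reads may be the same RNA counted in both.

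Turned the other way, 59 suffixed ORFs had an antisense row of their own. Of 21 that rose, 0 had an antisense row that rose and 3 had one that fell. The row antisense to YMR306C-A, among these 3, had 0.739 CPM in rrp6Δ cells and 1.66 CPM in WT cells (log2 change -1.175). Of 8 that fell, 6 had an antisense row that rose, and of the 30 not called, 16 did. Over all 3055 antisense rows, which the authors kept for their change in rrp6Δ cells, 52.1% rose. Such a row can also hold the reads of an ORF on its strand. The row antisense to YER067C-A had 282 CPM in rrp6Δ cells and 247 CPM in WT cells, and RGI1, which lies on that strand, had 344 CPM in rrp6Δ cells and 302 CPM in WT cells. Among the 8 suffixed ORFs that fell the largest antisense change stood opposite CMC4, where the antisense row had 412 ± 43.4 CPM in rrp6Δ cells and 8.63 ± 1.89 CPM in WT cells (SD, n = 3 and 4). Larger fold changes stood opposite 2 ORFs that were not called. VMA9 had an antisense row of 48.0 CPM in rrp6Δ cells and 0.882 CPM in WT cells, and YMR194C-A one of 43.2 and 0.407 CPM. CMC4 and VMA9 face the ends of SNR11 and SNR43, and YMR194C-A shares its number with CMC4 (YMR194C-B). How far reads past the ends of these snoRNA genes feed the antisense rows was not tested. TIM10 and AIM11 had antisense rows with log2 changes of 3.15 and 3.05, YJL077W-B of 2.65 and SCS22 of 0.98. The falls of AIM11 (-0.61) and YJL077W-B (-0.61) were near the limit. AIM11 was not called without WT replicate 3 (-0.58), WT replicate 4 (-0.56) or rrp6Δ replicate 1 (-0.48), and YJL077W-B was not called without WT replicate 2 (-0.39) or in a fit with replicate number as a blocking factor (-0.49). TIM9, the partner of TIM10, was not called at -0.39, and its antisense row had 4.62 CPM in rrp6Δ cells and 0.314 CPM in WT cells. YAL037C-B, which had at most 0.665 CPM in rrp6Δ cells (log2 change -1.502), had an antisense row of 4594 CPM in rrp6Δ cells and 6570 CPM in WT cells. How far so strong a row on the other strand feeds the counts of YAL037C-B was not tested. Without WT replicate 2, which had 3.31 CPM, its fall was -0.96.

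**Figure D4:**
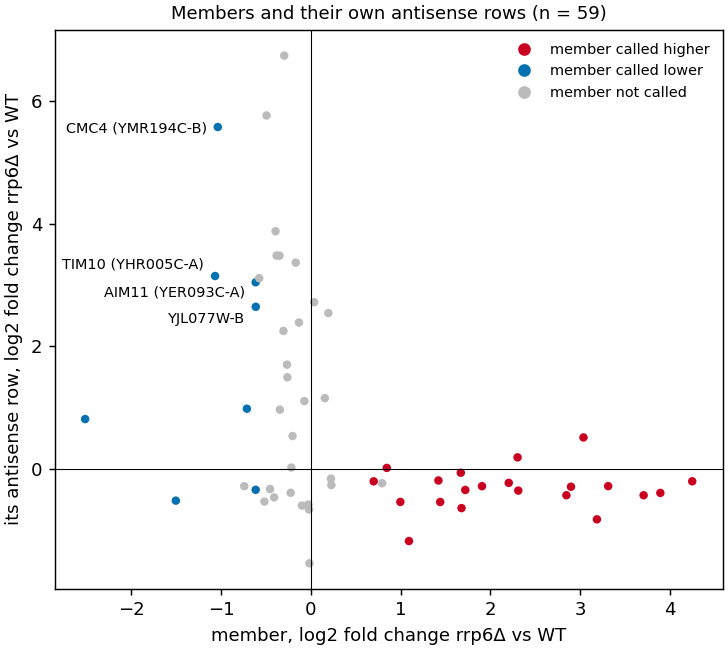
Log2 fold change of 59 suffixed ORFs in rrp6Δ against WT cells (x axis) and of the antisense row of each (y axis). Points are ORFs coloured by their call: those called higher spread along the x axis with 0 of 21 antisense rows called higher, and 6 of the 8 called lower have an antisense row that rose, among them CMC4, TIM10, AIM11 and YJL077W-B.

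The words TGTA and TCTT were counted on both strands over the matched ORFs. The 31 that rose held 0.549 TGTA per 100 bases on the coding strand, the 30 that fell 0.148, the 149 not called 0.384 and the other ORF-T rows 0.275. For TCTT the densities were 1.03 in those that rose, 0.522 in those that fell, 0.492 in those not called and 0.488 in the other ORF-T rows. On the opposite strand TGTA stood at 0.507 per 100 bases in the ORFs that rose, 0.386 in those that fell, 0.497 in those not called and 0.489 in the other ORF-T rows. TCTT there stood at 0.761 in the ORFs that rose, 1.36 in those that fell, 1.25 in those not called and 1.18 in the other ORF-T rows. The Nrd1 words GTAA and GTAG, which may overlap TGTA, stood at 0.352 and 0.268 in the ORFs that rose. They stood at 0.359 and 0.267 in those not called, 0.272 and 0.17 in those that fell and 0.337 and 0.197 in the other ORF-T rows. Base composition moved with these groups, at 38.5% G and C in the ORFs that rose, 42.1% in those that fell and 39.6% in the other ORF-T rows, and its part in the densities was not tested.

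Of the 37 ORFs that fell, 19 had a gene symbol, 11 a systematic name only and 7 no match in RefSeq, with a median of 5.17 CPM in rrp6Δ cells and 13.5 CPM in WT cells. SPO24 had 237, 338, 370 and 358 CPM in the double deletion and 178, 288 and 270 CPM in rrp6Δ cells, against 607, 716, 809 and 888 CPM in WT cells. No mutant library reached the lowest WT library, a condition of its choice among the largest falls. The log2 change in rrp6Δ cells was -1.62 ± 0.21 (edgeR adjusted p = 2.46e-05). Its neighbour VMA13 on the same strand was not called (-0.43). YER175W-A, of unknown product, had 0.994, 0.863, 1.03 and 1.00 CPM in the double deletion and 0.855, 0.749 and 0.636 CPM in rrp6Δ cells, against 3.46, 3.31, 3.98 and 6.21 CPM in WT cells. Its log2 change was -2.51 in rrp6Δ cells, and that of its neighbour TMT1, on the opposite strand, was -1.24. YDR406W-A fell by 1.82, and PDR15, the ORF of the same number and strand, a drug efflux transporter, fell by 2.48.

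WT replicate 4 was the highest WT library in 27 of the 37 ORFs that fell and the lowest in 34 of the 62 that rose. These ORFs were called by their distance from WT, and the same shares over all suffixed ORFs or all rows were not counted. HUG1 (YML058W-A), an inhibitor of ribonucleotide reductase induced by DNA damage, had 3.88, 5.78, 5.73 and 5.48 CPM in the double deletion and 3.32, 2.82 and 3.68 CPM in rrp6Δ cells, against 14.8, 14.6, 21.3 and 56.4 CPM in WT cells. The last WT value stands apart, and without that library the log2 change in rrp6Δ cells was -2.37, against -3.03 with it. LSO1 had 2.12, 2.64, 1.96 and 2.24 CPM in the double deletion and 2.28, 1.01 and 1.14 CPM in rrp6Δ cells, against 3.68, 5.28, 6.21 and 19.7 CPM in WT cells. Its log2 change in rrp6Δ cells was -2.58, and -1.80 without WT replicate 4. PAU9, of the seripauperin family, had at most 0.132 CPM in rrp6Δ cells and 6.61, 5.34, 7.56 and 33.5 CPM in WT cells, but 19 other places in the genome resemble it. Its log2 change was -7.06, and -6.03 without WT replicate 4. YPR145C-A changed by -1.10, by -0.64 without WT replicate 4, and was no longer called without rrp6Δ replicate 4 (adjusted p = 0.0516). Over all suffixed ORFs, leaving out WT replicate 4 gave 59 rises and 28 falls.

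Suffixed ORFs of known role were grouped in 8 lists. These held 78 measured ORFs, of which 2 rose and 10 fell in rrp6Δ cells, beside 3.26% and 12.7% of the other ORF-T rows, and the median of all 78 lay 0.01 below that of the other ORF-T rows. With scaling on ORF-T rows alone, TIM10 and HUG1 remained among the 10 falls, and the other 8 kept their direction but were not called. In the list of mitochondrial import, shape and genome upkeep 0 of 12 rose and 3 fell, and its median of -0.41 lay 0.12 below that of the other ORF-T rows. TIM10, which guides carrier proteins through the mitochondrial intermembrane space, had 65.3, 55.8, 58.3 and 56.3 CPM in the double deletion and 60.1, 51.2 and 47.8 CPM in rrp6Δ cells, against 123, 101, 107 and 113 CPM in WT cells. Its log2 changes were -1.07 in rrp6Δ cells and -0.91 in the double deletion (edgeR adjusted p = 3.74e-06 and 6.39e-06). TOM5, of the outer membrane import pore, fell by 0.83 in rrp6Δ cells. MDM35, a partner of lipid transfer proteins, fell by 0.65 and by 0.54, under the 1.5-fold limit, without rrp6Δ replicate 1. MIM2 was not called at -0.54, and was called with DESeq2 or its size factors (-0.65). RTC6 (YPL183W-A), a protein of the mitochondrial ribosome that is in none of the lists and was named after its values were seen, had 16.1, 18.5 and 16.02 CPM in rrp6Δ cells and 25.45, 26.5, 27.1 and 28.0 CPM in WT cells (log2 change -0.67).

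Of 13 genes for ATP synthase and the respiratory chain 1 rose and 2 fell. CMC2, needed for assembly of the chain, had 22.8, 25.0 and 23.3 CPM in rrp6Δ cells and 39.4, 33.2, 41.6 and 42.5 CPM in WT cells (log2 change -0.73, edgeR adjusted p = 0.000115). CMC4 fell by 1.04 with overlapping groups, and was no longer called without WT replicate 4 (-0.79, adjusted p = 0.0631) or without rrp6Δ replicate 1 (-0.77, adjusted p = 0.0639). COX26, a subunit of cytochrome c oxidase, had 4.31, 23.9 and 24.0 CPM in rrp6Δ cells and 1.38, 5.87, 7.06 and 4.39 CPM in WT cells. Replicate 1 was low in every genotype, so the groups overlapped. The log2 change was 1.90 (edgeR adjusted p = 0.0184), and the call was lost without rrp6Δ replicate 3 (adjusted p = 0.0803) or rrp6Δ replicate 4 (adjusted p = 0.0683). COA3, an assembly factor, was not called at -0.54, but was called with DESeq2 (-0.65), with DESeq2's size factors in edgeR (-0.65), and without WT replicate 1, rrp6Δ replicate 3, rrp6Δ replicate 4 or rtr1Δ rrp6Δ replicate 1 (-0.62 to -0.59).

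The cell surface, vacuole and endosome list had 0 of 10 higher and 2 lower. LSB3, which binds an activator of actin assembly, fell by 0.85 in rrp6Δ cells (edgeR adjusted p = 0.000445). CWP2 fell by 0.59 and stood so near the limit that it was not called without WT replicate 1 (-0.57), WT replicate 2 (-0.52) or rrp6Δ replicate 1 (-0.50), nor in a fit with replicate number as a blocking factor (-0.56). The cell wall gene CCW14 was not called at -0.53, and was called with DESeq2 or its size factors (-0.64). In the secretory and lipid list 1 of 10 fell, SCS22, a tether of endoplasmic reticulum and plasma membrane, by 0.71, and by 0.54 without rrp6Δ replicate 1, where it was not called. SBH1, a subunit of the translocon, was not called at -0.46, with 112, 116 and 114 CPM in rrp6Δ cells and 160, 154, 164 and 148 CPM in WT cells. Its groups did not overlap, and the change was under 1.5-fold.

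None of 9 kinetochore and chromosome genes was called, among them DAD4 and HSK3 of the ring complex on the spindle, at -0.52 and -0.44. DAD4 was called with DESeq2 or its size factors (-0.63), without WT replicate 2 (-0.62) and without rrp6Δ replicate 3 (-0.61). Likewise 0 of 7 genes for nuclear complexes and 0 of 9 for RNA processing and translation were called in rrp6Δ cells. TFB5, of the transcription factor TFIIH, had 13.3, 14.2 and 12.4 CPM in rrp6Δ cells and 13.1, 9.41, 13.1 and 12.1 CPM in WT cells, with a log2 change of 0.16. TMA20, which acts in ribosome recycling, was at -0.41. In the list of enzymes, signalling and stress 1 of 8 rose and 2 fell. HUG1 was described above. HBN1, similar to nitroreductases, fell by 0.80 and was no longer called without WT replicate 4 (adjusted p = 0.0551) or rrp6Δ replicate 1 (adjusted p = 0.058). FRM2, its neighbour, had 3.07, 1.79 and 1.75 CPM in rrp6Δ cells and 1.70, 1.12, 1.44 and 1.38 CPM in WT cells. Its log2 change was 0.64 (edgeR adjusted p = 0.0305), and was not called without rrp6Δ replicate 1 (0.33), WT replicate 2 (0.54) or WT replicate 3 (adjusted p = 0.052), nor in the blocked fit (0.55). The call of FRM2 was also lost with DESeq2 or its size factors (0.52). With only the 2 groups compared (edgeR adjusted p = 0.0524), or without replicate 1 of every group (0.41), it was lost too.

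**Figure D5:**
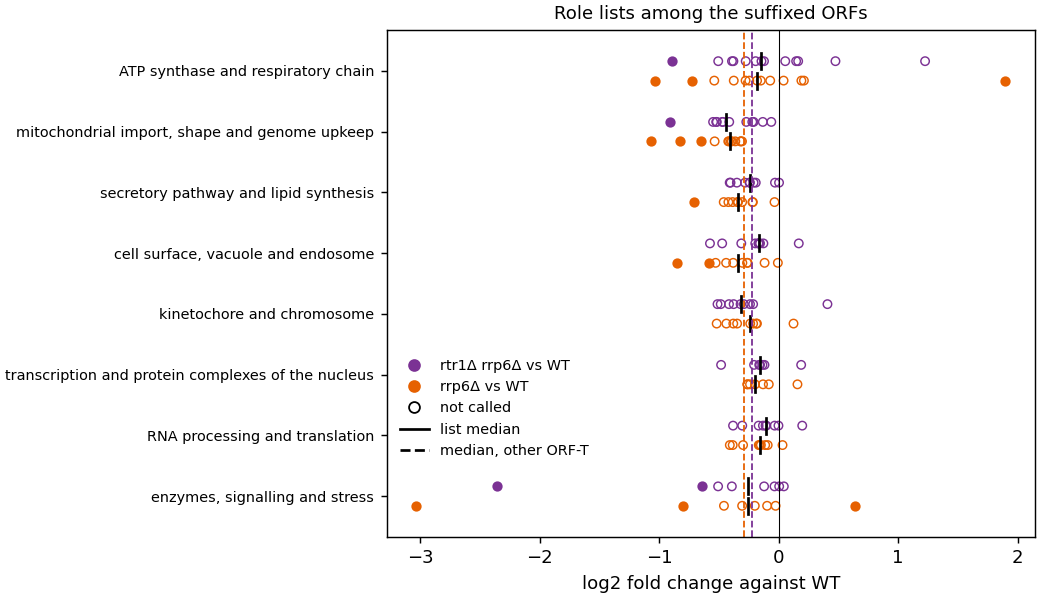
Log2 fold change against WT of the 78 measured genes of 8 role lists in rtr1Δ rrp6Δ and rrp6Δ cells. Filled points were called and open points were not, black bars are list medians and dashed lines the medians of the other ORF-T rows (-0.22 in rtr1Δ rrp6Δ and -0.29 in rrp6Δ cells): list medians stay within 0.22 of those lines, with COX26 and HUG1 farthest out.

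In the double deletion 54 suffixed ORFs rose and 28 fell against WT. The share that rose was 18.5%, against 34.5% of all rows and 3.12% of the other ORF-T rows, and the share that fell was 9.59%, against 6.55% and 9.02%. By annotation, 30 of the 82 unmatched ORFs rose, 17 of the 86 with a systematic name only and 7 of the 124 with a symbol. Scaling on ORF-T rows alone gave 67 rises and 15 falls, the upper quartile 57 and 18, and RLE 52 and 48, again without the shares of other rows. The same WT libraries serve both comparisons, so their agreement is not independent. The 62 ORFs that rose in rrp6Δ cells had a median log2 change of 2.17 there and of 1.95 in the double deletion. The 37 that fell had medians of -0.78 and -0.64. Of the ORFs called higher, 53 were shared, which is 85.5% of the 62 and 98.15% of the 54, and of those called lower 23, or 62.2% of the 37 and 82.1% of the 28. None was called in opposite directions.

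The comparison of the double deletion with rrp6Δ cells asks what the loss of RTR1 adds where RRP6 is already absent. Of the 292 suffixed ORFs 0 rose and 2 fell, against 0.142% and 0.758% of all rows and 0.0902% and 0.289% of the other ORF-T rows, with a median log2 change of 0.05. At an unadjusted p under 0.05 there were 25 ORFs, and DESeq2 called 0 higher and 3 lower. The shares of all rows and of the other ORF-T rows were not counted for either, so these counts have no background beside them. YHL019W-A had 1.36, 2.01, 1.53 and 2.08 CPM in the double deletion, against 2.82, 3.31 and 3.63 CPM in rrp6Δ cells, and 0.177, 0.164, 0.2196 and 0.253 CPM in WT cells. It was the only one of the pair to rise in rrp6Δ cells, and it stood lower in the double deletion by a log2 change of -0.89 (edgeR adjusted p = 0.0447). YGR122C-A had 1.96, 1.80, 1.40 and 1.61 CPM in the double deletion, against 2.41, 3.54 and 2.75 CPM in rrp6Δ cells, with 2.76 to 2.83 CPM in WT cells. Its log2 change was -0.78 (edgeR adjusted p = 0.0483), so that it stood below both other genotypes.

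Both calls sat at the threshold and neither was made when any single library was left out, with adjusted p of 0.0504 to 0.27 for YHL019W-A and 0.0539 to 0.258 for YGR122C-A. Libraries of a replicate number came from cultures grown on the same day, and when that number entered the model 2 suffixed ORFs rose and 8 fell (the replicate block). These were 0.685% and 2.74% of the suffixed ORFs, against 0.545% and 3.37% of all rows and 0.541% and 0.902% of the other ORF-T rows. DPI8 and COQ21 were then higher, by 0.60 and 0.66 (edgeR adjusted p = 0.00103 and 0.00576). Lower were YHL019W-A by -0.95, YGR122C-A by -0.80, YGL041C-B by -1.13, YOR032W-A by -0.87, DPC7 by -0.69, COX26 by -0.68, YER053C-A by -0.67 and YOR072W-A by -0.60, with adjusted p of 0.00321 to 0.0437. YGL041C-B had 0.431, 0.523, 0.436 and 0.603 CPM in the double deletion and 1.11, 1.30 and 1.01 CPM in rrp6Δ cells, groups that did not overlap, and 0.424, 0.394, 0.721 and 0.366 CPM in WT cells. It was close to the threshold without the block (adjusted p = 0.0502). The ORFs called only with the block were named after their values were seen.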

How the data were processed

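Per the labels and the methods of the study, the authors made stranded total RNA libraries after removal of ribosomal RNA, aligned reads to sacCer3 with STAR 2.5.2b and deposited counts per row from featureCounts (Subread 1.5.0). The deposited counts were used as raw counts, since every whole number from 30 to 150 occurs in each of the 11 libraries. Rows antisense to ORFs were kept by the authors where they changed in rrp6Δ cells. Of 16 samples 11 were used, and 5 were not analysed here; 1 column was not used because its header leaves the genotype open, so that rrp6Δ has replicates 1, 3 and 4. Columns of the authors' own comparisons were not used.

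edgeR 4.0.16 in R 4.3.3 was run on all 12670 rows of the 3 groups together (TMM scaling, filterByExpr, which removed 0 rows, and the quasi-likelihood test), with Benjamini-Hochberg adjustment over all rows. A call needed an adjusted p of at most 0.05 and a change of at least 1.5-fold. The same test was run on simulated data. DESeq2 1.42.0, other scalings, filters and each library left out were alternatives. P-values measure the spread between the libraries, which were separate cultures. Intervals cover counting error only.

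Libraries of one replicate number were grown on the same day. Over 10 same-numbered pairs, deviations from the group means correlated at 0.242 to 0.829 and between numbers at -0.678 to 0.367. The ranges overlap, and the lowest same-numbered value was that of the replicate 2 libraries of WT and the double deletion. A fit with the replicate number as a block was made.

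Members, gene lists and tests were chosen with earlier results of these data known. Named ORFs include up to 8 with the largest rises and up to 8 with the largest falls in each comparison among calls. For these a minimum mean count in either group was required, and replicates of the groups that did not overlap in CPM. Their separation is thus no finding. Also chosen were the 4 with the smallest adjusted p of each list, the 5 with the highest WT level and the 6 largest antisense changes of called ORFs. Some of the list ORFs that were not called are not described in the text. Those said to be chosen afterwards come in addition. Gene names and coordinates are from RefSeq for assembly R64.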

Additional observations from a re-analysis of the deposited data

Results flagged for a closer look

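In 132 groups of 4 libraries of the named ORFs, 11 held a library far from the other 3 (by Dixon's test at its 95% critical value), a rule that chance meets in about 1 in 20 groups. WT replicate 4 was high for PAU9 (33.5 CPM, others 5.34 to 7.56), LSO1 (19.7 CPM, others 3.68 to 6.21) and HUG1 (56.4 CPM, others 14.6 to 21.3). WT replicate 2 was low for DAD3 (11.5 CPM, others 14.9 to 15.5) and MDM35 (36.0 CPM, others 42.2 to 43.1) and high for YKL183C-A (0.328 CPM, others 0.113 to 0.141). WT replicate 3 was high for YGL041C-B (0.721 CPM, others 0.366 to 0.424), and WT replicate 1 for CCW14 (257.8 CPM, others 238.0 to 240.4). Replicate 1 of the double deletion was low for IGO2 (30.2 CPM, others 36.6 to 37.8) and HUG1 (3.88 CPM, others 5.48 to 5.78) and high for CWP2 (698.9 CPM, others 601.0 to 611.7).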

How the results depend on the processing

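For rrp6Δ against WT, 99 suffixed ORFs were called, and 151 with no fold minimum, 61 among those matched in RefSeq and 87 to 106 with a library left out. DESeq2 gave 58 rises and 54 falls. The median log2 change of -0.19 was -0.306 with DESeq2, -0.302 with RLE, 0.106 with scaling on ORF-T rows alone, -0.009 with the upper quartile, -0.243 among matched ORFs and -0.274 to -0.171 with a library left out. Over all rows these scalings moved the median by -0.11 (RLE), 0.18 (upper quartile) and 0.30 (ORF-T rows). For the double deletion against WT, 82 were called, and 132 with no fold minimum, 47 among matched ORFs and 79 to 89 with a library left out, and DESeq2 gave 53 rises and 51 falls. Its median of -0.133 was -0.245 with DESeq2, -0.244 with RLE, -0.178 with only the 2 groups compared, 0.095 with scaling on ORF-T rows, -0.012 with the upper quartile, -0.193 among matched ORFs and -0.178 to -0.099 with a library left out. For the double deletion against rrp6Δ, the 2 calls became 0 with only these groups, 10 with the replicate block, 1 with the stricter filter, 0 among matched ORFs and 0 to 1 with a library left out, where the 1 (without WT replicate 3) was another ORF. The median of 0.047 was -0.021 with scaling on ORF-T rows, -0.015 with the upper quartile and 0.029 to 0.089 with a library left out. The block gave 104 and 92 calls against WT, and beyond those given beside the results it changed no count by more than 1.5 times. Leaving out replicate 1 of every group, an alternative added after seeing the data, gave 106, 90 and 2 calls. For single named ORFs, 134 values under 2667 alternatives kept their side of the limits in 2518, lost the call in 107 and gained it in 42. A change of direction was counted only where a call was made in either fit, and there were 0 of these. Changes of direction among values not called were not counted. The cause was not tested where a value moved.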

Other observations

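Replicate 1 of every genotype was the lowest library of its group for 65 suffixed ORFs (22.3%), against 23.0% of the other ORF-T rows, and the highest for 51 (17.5%), against 24.8%. COX26 was lowest in replicate 1 of each genotype.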
